A study of Mus musculus with 4 samples.

Results

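The genes described here are 32 genes of fatty acid oxidation, ketone body formation and the peroxisome, chosen by name and all found among the 55487 genes of the deposited tables. They were measured in mouse intestinal crypt stem cells, sorted from untreated animals aged 6 to 12 weeks that carry the allele Lgr5-EGFP-IRES-creERT2, so that the promoter of the stem cell gene Lgr5 makes green fluorescent protein and an inducible Cre. The small-intestinal group (SISC) held EGFP-positive cells without CD24 on their surface, and the large-intestinal group (LISC) held EGFP-positive cells for which the labels name no CD24 gate. Each group had 2 libraries of poly(A) RNA. Whether the libraries of a group came from different animals is not in the labels, and where they did not, the p-values would cover technical spread only. The sex-linked genes bear on this: the X-linked RNA Xist was at 539 CPM (expected counts over the TMM-adjusted library size, the measure of level throughout) in SISC replicate 1 and at most 0.812 CPM in the other libraries, and the Y-linked genes Ddx3y, Eif2s3y, Kdm5d and Uty had 0 counts in SISC replicate 1 and 149 to 1435 in the others. SISC replicate 1 thus carries female and the other libraries male expression of these genes, so the SISC libraries came from different animals. For the LISC libraries, both with male expression, this stays unknown. Differences within replicate 2 are free of the contrast of sex.

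Fatty acids enter the cell through membrane transporters, are activated to acyl-CoA, pass the mitochondrial membrane as carnitine esters and are then shortened step by step by beta-oxidation, which yields acetyl-CoA. Mitochondria can turn acetyl-CoA into ketone bodies, and peroxisomes oxidise very long and branched chains and 2-hydroxy acids. In the intestine the nuclear receptors of the PPAR family are known to switch on many of these genes, and in small-intestinal stem cells of the mouse both fatty acid oxidation and ketone body synthesis are known to bear on stem cell function.

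Library totals ran from 12795400 to 27227700 expected counts. The libraries also differed by replicate number: rRNA genes made up 31.8% (SISC) and 36.6% (LISC) of the counts of replicate 1, but 0.246% (SISC) and 0.304% (LISC) of those of replicate 2. Differences within each replicate number are therefore given beside the fitted ones; each compares 1 library with 1 library, with no test. The 10 stem cell markers of a list that includes Lgr5 were read in every library. They summed to 2810 and 3418 CPM in SISC, against 2209 and 1805 in LISC; 9 of the 10 had a negative log2 difference (median −0.61), and edgeR called 1 higher in SISC. Markers of other cells also moved with the groups, and the part of all these markers in the results below was not tested. The 7 goblet cell markers summed to 1862 and 325 CPM in SISC replicates 1 and 2 and to 3126 and 4233 CPM in LISC replicates 1 and 2. The 12 large-intestinal colonocyte markers summed to 250 and 181 CPM in SISC, against 609 and 1847 in LISC. Car1, Aqp8 and Scnn1b were at 0 in at least 1 library, and Car1 was at 126 and 920 CPM in LISC. Of the 12, 10 had a positive log2 difference, and edgeR called 3 higher in LISC. The other 2, Aqp4 and Mall, had a negative one: Aqp4 was at 121 and 121 CPM in SISC, against 62.8 and 59.7 in LISC. The 14 small-intestinal enterocyte markers summed to 1189 and 966 CPM in SISC, against 611 and 715 in LISC, with Apoa1 and Apoa4 at 0 in at least 1 library. Of the 14, 12 had a negative and 2 a positive log2 difference, and edgeR called 4 higher in SISC. The 6 Paneth cell markers summed to 8445 and 1306 CPM in SISC, against 52.1 and 26.6 in LISC. The 5 tuft cell markers summed to 16.7 and 2.31 CPM in SISC, against 67.0 and 108 in LISC. The 6 markers of fibroblasts and smooth muscle summed to at most 1.2 CPM in any library.

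Setting LISC beside SISC asks how far this metabolism differs between the sorted stem cell populations of both parts of the gut. The labels name a CD24 gate for SISC alone, so differences of gate and of intestine cannot be told apart. A single member passed the test: Hao2, the gene of the peroxisomal hydroxy acid oxidase 2, was 556-fold higher in LISC by the fit. Of the 31 members tested, 22 lay within 2-fold (71.0%, against 82.5% of all genes tested). A few other genes stood apart in both replicates: Acaa1b, Acads, Acsl4, Acsl3 and Acadl had higher values in LISC, and Slc27a2 and Angptl4 had higher values in SISC. None of these 7 passed edgeR's test across all genes. A gene is called here at an adjusted p below 0.05 in edgeR's quasi-likelihood test, adjusted over the 14165 genes that passed a filter on low counts.

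Of 32 members, 31 passed that filter, and 1 was called higher in LISC, where 1.45% of all genes tested were (2.2% in either direction). None was called higher in SISC by edgeR, where 0.741% of all genes were. At an unadjusted edgeR p below 0.05 there were 6 members higher in LISC and 2 higher in SISC, against 8.73% and 4.67% of all genes. DESeq2 called 4 higher in LISC (Hao2, Acaa1b, Acads and Acsl3) and 1 higher in SISC (Slc27a2), where it called 4.64% and 2.32% of all genes. An edgeR fit with replicate number as a block called 5 and 1, against 7.17% and 3.7% of all genes. In 6 members both LISC libraries lay above both SISC libraries with at least a 2-fold difference, which is 19.4% of those tested against 10.3% of all genes. Counted at any size, LISC lay above SISC in 15 members (48.4%, against 21.9% of all genes) and below in 3 (9.68%, against 18.4%). The reverse of the 2-fold separation held for 2 members, or 6.45% against 5.26% of all genes. The members were chosen with earlier results of these data known, so their shares beside all genes are a description with no test. The median log2 difference of LISC over SISC was 0.27 over the members and −0.02 over all genes tested. Within replicates 1 and 2 the members' median was 0.18 and 0.33. Without SISC replicate 1, the library with female expression, Hao2 was again the sole member called. The median rests on single libraries: it was 0.06 without LISC replicate 2, 0.11 without SISC replicate 1, 0.38 without LISC replicate 1 and 0.40 without SISC replicate 2.

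**Figure D1:**
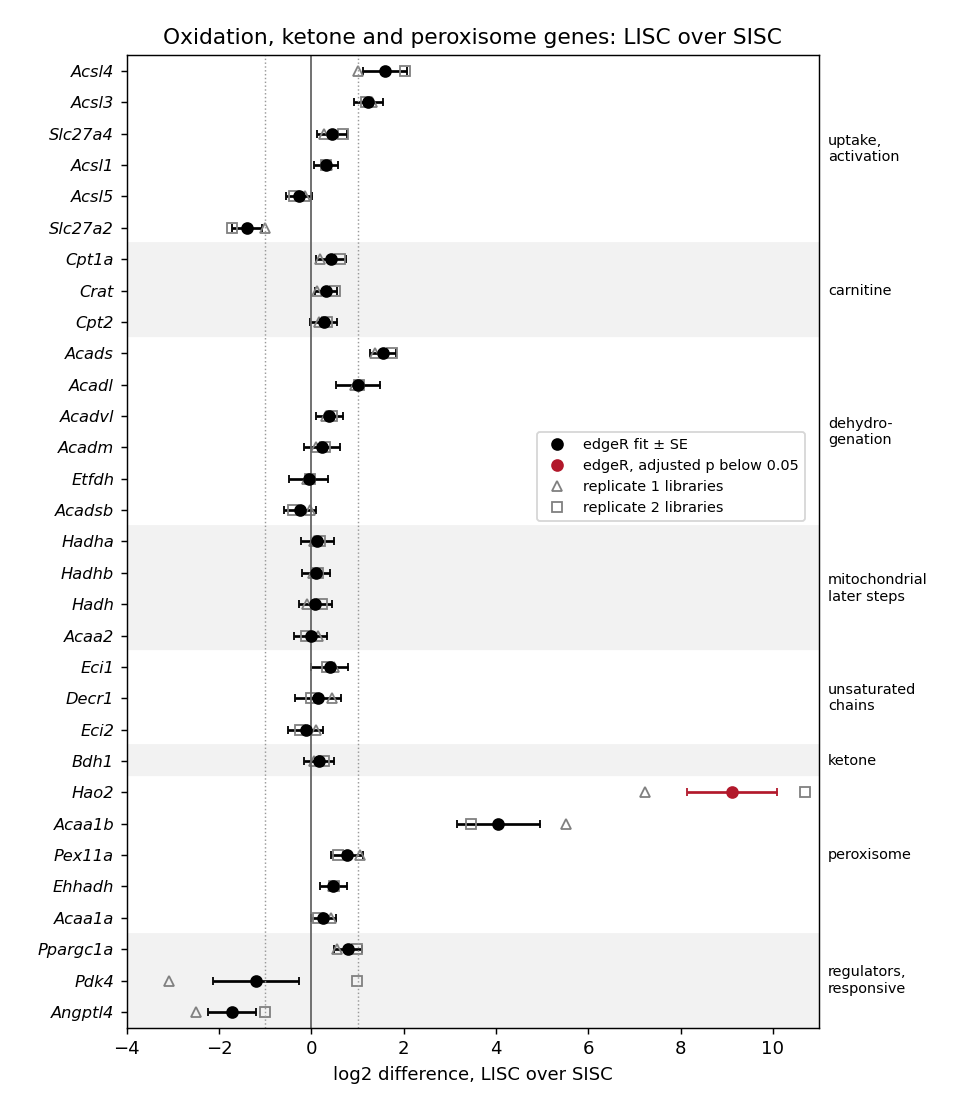
Log2 difference of LISC over SISC for the 31 members tested, grouped by their role in the pathway. Filled circles with bars are the edgeR fit ± its approximate standard error (2 libraries per group), triangles and squares the difference within replicate 1 and within replicate 2, and dotted lines mark 2-fold; Hao2, in red at 9.12, is the one gene past the threshold, and most mitochondrial genes lie between the dotted lines.

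The largest differences among the members were in peroxisomal genes. Hao2 (ENSMUSG00000027870; chromosome 3, 98874521 to 98893239, minus strand, GRCm38) encodes an enzyme that oxidises 2-hydroxy acids of medium and long chains. It had 6 and 3 counts in the SISC libraries, and 765 and 5259 in the LISC libraries (replicate 1 first, here and below). As levels these were 0.437 and 0.0937 CPM in SISC, against 70.9 and 181 in LISC. The groups did not come near each other, and the LISC libraries themselves differed, with replicate 2 the higher. The log2 difference was 9.12 ± 0.97 (SE; edgeR adjusted p = 0.0269), and 7.23 and 10.69 within replicates 1 and 2. Hao2 was called under each of 11 alternative settings, with log2 differences from 5.65 to 10.31 and adjusted p from 1.36e-52 to 0.0303. Its fitted fold rests on few SISC counts: the log2 difference was 10.31 without SISC replicate 1, 8.11 without SISC replicate 2, 9.66 without LISC replicate 1 and 8.30 without LISC replicate 2. In sorted populations, fewer cells of a type and less RNA per cell cannot be told apart. The summed colonocyte markers, at 609 and 1847 CPM in the LISC libraries, were also higher in LISC than in SISC. So were the summed goblet cell markers (3126 and 4233 CPM in LISC) and tuft cell markers (67.0 and 108 CPM in LISC). The sums of enterocyte, Paneth, immune and Lgr5 stem cell markers were higher in SISC. Proliferating crypt cell and enteroendocrine cell markers had sums that overlapped between the groups. The part of these cell types in the difference of Hao2 was not tested.

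Acaa1b and Acaa1a encode peroxisomal 3-ketoacyl-CoA thiolases, which carry out the last step of each oxidation round, and Acaa1b had much the larger difference of the pair. Acaa1b (ENSMUSG00000010651; chromosome 9, 119148023 to 119157093, minus strand) was at 0.0771 and 0.529 CPM in SISC, against 5.17 and 5.96 in LISC. Both LISC values lay well above both SISC values, which rested on estimated counts of 1.06 and 16.9. The log2 difference was 4.05 ± 0.90 (SE), short of the threshold in edgeR (adjusted p = 0.122), and 5.52 and 3.46 within replicates 1 and 2. The call depended on the test, with adjusted p from 2.05e-05 to 0.305 over 10 alternative settings, 5 of which called it; among these was the fit without SISC replicate 2 (log2 6.11, adjusted p = 0.0470), against 3.37 without SISC replicate 1. Acaa1a, 183 kb away on the same chromosome, was at 63.9 and 82.2 CPM in SISC, against 85.2 and 90.2 in LISC (log2 0.26 ± 0.27). Acaa1b thus made up 0.114% and 0.642% of the pair's counts in SISC (Wilson 95% interval 0.0201 to 0.642 and 0.401 to 1.02) and 5.74% and 6.18% in LISC (4.45 to 7.39 and 5.35 to 7.13). These intervals cover counting error only.

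Because the coding sequences of the pair are alike, the division of reads between them matters. They have 1272 coding bases each without the stop codon, of which 1228 are identical (96.5%), and the longest identical stretch is 327 bases. The estimation program's posterior SD of the Acaa1b count was 0.39 and 1.51 in SISC and 2.42 and 4.49 in LISC, small beside the LISC counts of 55.8 and 173. The stretch of 60 coding bases with the most differences within 1 exon of each gene, coding bases 460 to 519, shows what tells their reads apart. Capitals mark the 11 bases that differ, and the lines are Acaa1a at chr9:119346483-119346542 (plus strand) and Acaa1b at chr9:119151842-119151901 (minus strand), from the GENCODE vM21 transcripts of GRCm38.
Acaa1a: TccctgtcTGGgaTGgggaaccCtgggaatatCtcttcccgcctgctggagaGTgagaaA
Acaa1b: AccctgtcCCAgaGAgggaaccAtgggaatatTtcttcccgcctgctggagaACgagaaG

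The start regions of these genes differ in base composition, and they are shown because Hao2 and Acaa1b, both nearly unread in SISC, stand at the low end of the members. RefSeq start regions of 300 bases (250 before to 50 after the start, GRCm38.p6) were matched for 28 of 32 members, with 30 start regions in all. Hao2 (chr3:98893181-98893480, minus strand) had the lowest GC content of these, at 32.3%, with 2 CG pairs. Acaa1b (chr9:119157044-119157343, minus strand) had 43.7% GC and 4 CG pairs, the third lowest after Cd36 at 43.0%. Low GC content did not go with low SISC levels throughout. The next lowest was a start region of Bdh1 (48.3% GC, 7 CG pairs), a gene at 187 and 213 CPM in SISC. Another start region of Bdh1 had 63.7% GC. Acaa1a (chr9:119341044-119341343, plus strand) had 53.3% GC and 10 CG pairs. Hadhb (chr5:30155003-30155302, plus strand), a gene of the common mitochondrial core, had 60.7% GC and 24 CG pairs. The median was 60.7% GC over member start regions and 52.7% over all 32851 start regions. Capitals mark CG pairs in the sequences, which read towards the gene.
Hao2: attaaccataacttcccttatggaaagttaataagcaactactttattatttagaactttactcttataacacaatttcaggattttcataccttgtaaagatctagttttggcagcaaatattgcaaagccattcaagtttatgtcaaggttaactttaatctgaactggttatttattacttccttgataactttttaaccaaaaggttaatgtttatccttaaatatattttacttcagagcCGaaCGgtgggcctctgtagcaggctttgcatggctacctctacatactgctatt
Acaa1b: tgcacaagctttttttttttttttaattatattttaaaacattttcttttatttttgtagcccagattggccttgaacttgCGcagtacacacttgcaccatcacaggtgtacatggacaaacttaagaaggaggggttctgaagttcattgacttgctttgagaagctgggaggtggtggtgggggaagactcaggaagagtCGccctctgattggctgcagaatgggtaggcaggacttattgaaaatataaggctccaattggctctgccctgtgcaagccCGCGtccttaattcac
Acaa1a: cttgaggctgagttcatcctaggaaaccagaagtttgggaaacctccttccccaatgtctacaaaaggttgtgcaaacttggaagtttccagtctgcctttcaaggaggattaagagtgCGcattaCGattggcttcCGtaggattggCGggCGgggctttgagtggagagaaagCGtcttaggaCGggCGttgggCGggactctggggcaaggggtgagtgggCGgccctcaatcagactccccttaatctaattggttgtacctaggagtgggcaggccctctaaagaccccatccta
Hadhb: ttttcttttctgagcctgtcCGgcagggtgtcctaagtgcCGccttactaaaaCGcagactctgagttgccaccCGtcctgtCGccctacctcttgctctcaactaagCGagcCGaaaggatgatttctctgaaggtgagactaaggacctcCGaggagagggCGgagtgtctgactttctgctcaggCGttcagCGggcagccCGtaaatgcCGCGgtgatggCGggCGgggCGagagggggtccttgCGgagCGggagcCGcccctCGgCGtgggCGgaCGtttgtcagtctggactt

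A search of both strands for AGGTCA, the core letters of nuclear receptor elements, found it in 5 of the 30 member start regions (16.7%; Acadm, Acadvl, Cd36, Cpt1a and Slc27a2) and in 16.3% of all start regions. A direct repeat of AGGTCA with 1 base of any kind between its copies, the PPAR type of element, of which the shorter motif is a part, was in 0 of 30 and in 0.0396% of all start regions. A match is a description of letters, and its absence says only that these letters are not in the window.

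The other peroxisomal members differed less. Pex11a, whose protein takes part in the division of peroxisomes, was at 8.80 and 14.9 CPM in SISC, against 18.3 and 22.1 in LISC (log2 0.77 ± 0.35, SE; edgeR adjusted p = 0.470). The groups did not overlap, but the gap between them was smaller than the spread within SISC. Ehhadh, the bifunctional enzyme that adds water to and then oxidises the chain in peroxisomes, was at 29.3 and 38.4 CPM in SISC, against 40.7 and 53.7 in LISC (log2 0.48 ± 0.29).

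**Figure D2:**
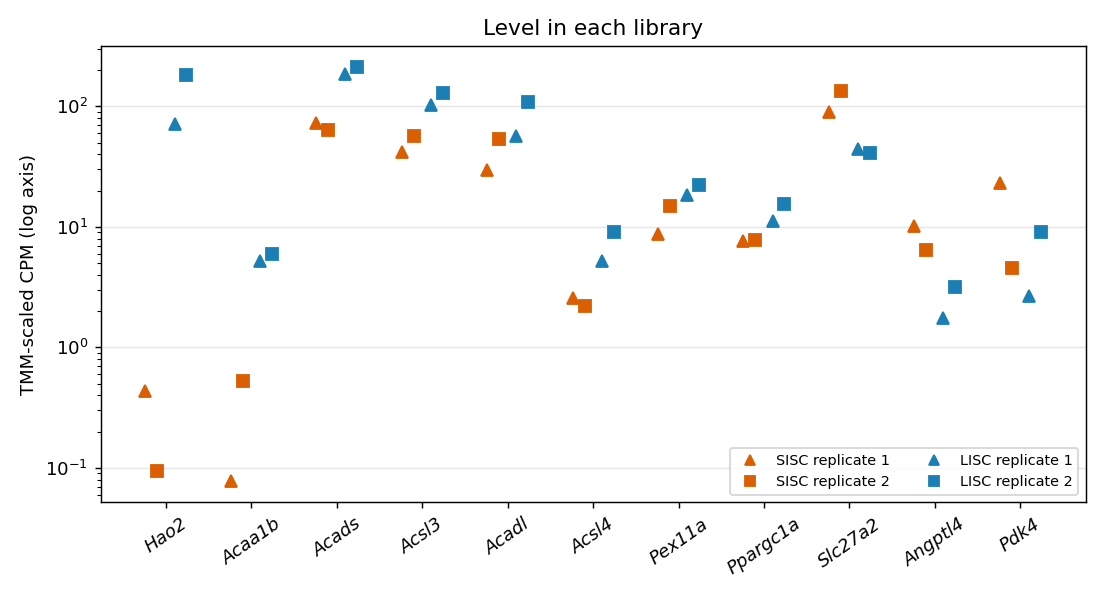
TMM-scaled CPM on a log axis of 11 members in each of the 4 libraries (triangles, replicate 1; squares, replicate 2). Hao2 and Acaa1b are below 1 CPM in both SISC libraries and above 5 CPM in both LISC libraries, Slc27a2 and Angptl4 are higher in SISC, and the groups overlap for Pdk4.

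Steroid dehydrogenase genes near Hao2 on chromosome 3, Hsd3b2 and Hsd3b3, also had higher values in LISC and were named after their values were seen. Of the family members nearer to Hao2, Hsd3b6 had 0 counts in every library and Hsd3b1 had 2 counts in LISC replicate 1 and 0 elsewhere; Hsd3b4 and Hsd3b5 had 0 counts in every library. Hsd3b3 was at 1.75 and 0.781 CPM in SISC, against 63.2 and 84.8 in LISC (log2 5.93, edgeR adjusted p = 0.0202). Hsd3b2 was at 0.437 and 0.9996 CPM in SISC, against 13.3 and 14.3 in LISC (log2 4.19, edgeR adjusted p = 0.0363). These are close copies among which reads may have been divided, so their values are uncertain; each was called under all 11 alternatives. Without SISC replicate 2 the log2 difference was 4.93 for Hsd3b2 and 5.37 for Hsd3b3, and without SISC replicate 1 it was 3.77 and 6.55. Zfp697, which overlaps both of them on the opposite strand, had a log2 difference of 0.23 (edgeR adjusted p = 0.986).

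Among genes of fatty acid uptake and activation, differences went in both directions. Slc27a2, a fatty acid transport protein that also activates very long chains, was at 89.1 and 135 CPM in SISC, against 44.4 and 40.8 in LISC. Both SISC values lay above both LISC values, a log2 difference of −1.40 ± 0.32 (SE), short of edgeR's threshold (adjusted p = 0.128). Within replicate 1 it was −1.005 and within replicate 2 −1.73. Its adjusted p ran from 0.00635 to 1 over 11 alternatives, 3 of which called it. The summed enterocyte markers were also higher in SISC (1189 and 966 CPM, against 611 and 715 in LISC). So were the summed Lgr5 stem cell markers (2810 and 3418 CPM, against 2209 and 1805 in LISC). The part of either list in this was not tested. Slc27a4, a relative known from the absorbing epithelium, was at 36.5 and 22.8 CPM in SISC, against 44.5 and 36.6 in LISC, where the groups all but touched (log2 0.45 ± 0.32).

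The long-chain acyl-CoA synthetases, which attach coenzyme A to fatty acids, divided by member. Acsl3, an enzyme of the endoplasmic reticulum and lipid droplets, was at 41.4 and 57.1 CPM in SISC, against 103 and 129 in LISC. The groups were well apart, with a log2 difference of 1.24 ± 0.31 (SE; edgeR adjusted p = 0.155; 0.00665 to 1 over 11 alternatives, 3 of which called it). Acsl4, which prefers arachidonic acid, was at 2.55 and 2.22 CPM in SISC, against 5.19 and 9.11 in LISC (log2 1.59 ± 0.48, edgeR adjusted p = 0.227). Acsl1 and Acsl5, the forms with the higher levels per kilobase in SISC, had log2 differences of 0.32 ± 0.26 and −0.26 ± 0.28. Per kilobase of effective length, Acsl3 stood at 0.556 and 0.421 of the level of Acsl5 in SISC and at 1.27 and 1.46 of it in LISC, so that their order was reversed between the intestines. Acsl3 overlaps Utp14b on the same strand and Acsl5 overlaps Zdhhc6 on the opposite strand. These are 2 of 9 members that overlap another gene with at least 10 counts, and how the counting used strand is unknown here. The estimation program's posterior SD of the count was 0 in every library for Acsl5. For Acsl3 it was at most 0.88, beside counts of 569 to 3763, so few reads of these 2 members were divided between genes. Cd36, a fatty acid translocase, failed the filter on low counts, with 3 and 14 counts in SISC and 0 and 2 in LISC, a ratio of pooled counts of 7.41 (exact 95% interval 1.76 to 66.1, counting error only).

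All 3 carnitine shuttle genes lay within 2-fold. Cpt1a, the outer-membrane palmitoyltransferase that controls entry into mitochondrial oxidation, was at 111 and 123 CPM in SISC, against 126 and 189 in LISC (log2 0.43 ± 0.33, SE). The lower LISC value was close to the higher SISC value. Cpt2, the inner-membrane partner, and Crat, the carnitine acetyltransferase, had log2 differences of 0.27 ± 0.29 and 0.31 ± 0.25.

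The acyl-CoA dehydrogenases start each oxidation round, and each acts on chains of a different length. Acads, for short chains, had the largest difference: 72.4 and 63.6 CPM in SISC, against 187 and 213 in LISC. Its values were tight within each group and nearly 3-fold apart (2.95-fold), but the log2 difference of 1.56 ± 0.29 (SE) did not pass (edgeR adjusted p = 0.0801; 0.000175 to 1 over 11 alternatives, 3 of which called it). It was 1.37 and 1.75 within replicates 1 and 2. Acadl, for long chains, was at 29.5 and 53.1 CPM in SISC, against 57.1 and 109 in LISC. The groups barely parted and replicate 2 was well above replicate 1 in both intestines, while the difference within replicates was 0.95 and 1.04 (fitted log2 1.01 ± 0.47, edgeR adjusted p = 0.494). The fitted value was 0.48 without LISC replicate 2 and 1.47 without SISC replicate 2, and neither passed. Acadvl, for very long chains, Acadm, for medium chains, and Acadsb, for short branched chains, had log2 differences of 0.39 ± 0.30, 0.23 ± 0.39 and −0.25 ± 0.35. Etfdh, which passes the electrons of these enzymes to the respiratory chain, had −0.06 ± 0.42.

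The balance between chain lengths can be read within each library, per kilobase of effective length. The level of Acads was 1.41 and 0.522 times that of Acadm in SISC replicates 1 and 2, and 3.35 and 1.36 times in LISC replicates 1 and 2. The ratio per kilobase was higher in LISC within each replicate number, but the groups overlapped across them. It depends on the effective length, which differed between libraries. Acadm was at 34.0 and 72.9 CPM per kilobase in SISC, against 34.3 and 96.0 in LISC, a wider step between replicates than in CPM. Acadm, at 54.5 and 80.5 CPM in SISC, against 58.7 and 99.4 in LISC, differed more by replicate number than by intestine. By mean level per kilobase over a group, Acads ranked 12 of the 32 members in SISC and 3 in LISC. Hao2 ranked 32 in SISC and 8 in LISC.

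The later steps of mitochondrial oxidation gave the most even values. Hadha and Hadhb encode the alpha and beta subunits of the trifunctional protein, which carries out these steps on long chains, and their genes lie head to head, 85 bases apart, on chromosome 5. Hadha was at 193 and 252 CPM in SISC, against 200 and 287 in LISC, and Hadhb at 108 and 132 CPM in SISC, against 111 and 147 in LISC. Both sets of values overlapped between the intestines, and the log2 differences were 0.13 ± 0.36 and 0.10 ± 0.31 (SE). Per kilobase the alpha to beta ratio stayed between 0.910 and 1.18 over the 4 libraries. Hadh, which oxidises short and medium 3-hydroxyacyl chains and had the highest level per kilobase of all members, was at 227 and 267 CPM in SISC, against 212 and 312 in LISC (log2 0.09 ± 0.35). Acaa2, the mitochondrial 3-ketoacyl-CoA thiolase, had a log2 difference of −0.02 ± 0.35. The auxiliary enzymes for unsaturated chains, the reductase gene Decr1 and the isomerase genes Eci1 and Eci2, had differences of 0.15 ± 0.49, 0.39 ± 0.40 and −0.12 ± 0.38.

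Counted together, 14 of the 16 members from the carnitine shuttle to the isomerases lay within 2-fold, with log2 differences between −0.25 and 0.43, and Acads and Acadl were the exceptions. Of the 16, Acads alone had an unadjusted edgeR p below 0.05, and a missed threshold does not show that levels are equal. Bdh1, the dehydrogenase that interconverts the ketone bodies acetoacetate and beta-hydroxybutyrate, was the second most abundant member per kilobase. It was at 187 and 213 CPM in SISC, against 194 and 255 in LISC, overlapping values with a log2 difference of 0.17 ± 0.32.

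**Figure D3:**
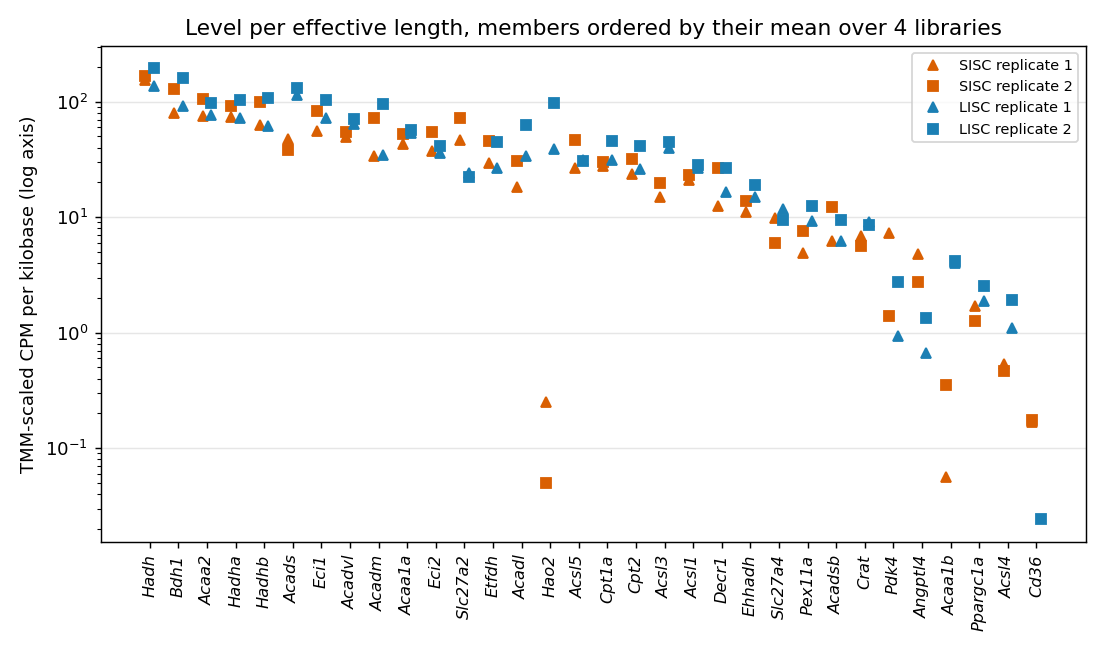
Level per kilobase of effective length (TMM-scaled CPM per kilobase, log axis) of the 32 members in each library, ordered by the mean over the 4 libraries. Hadh and Bdh1 are the most abundant, SISC and LISC points of most mitochondrial genes intermingle, and Hao2 spans from 0.0501 to 96.6; Cd36 in LISC replicate 1 is 0 and is not drawn.

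Regulators and PPAR-responsive members had no common direction. Ppargc1a, a coactivator known to drive mitochondrial oxidation genes, was at 7.57 and 7.72 CPM in SISC, against 11.1 and 15.4 in LISC. The LISC values were the higher, with a log2 difference of 0.80 ± 0.30 (SE; edgeR adjusted p = 0.357). Angptl4, a secreted inhibitor of lipoprotein lipase, was at 10.1 and 6.37 CPM in SISC, against 1.76 and 3.16 in LISC. Here the SISC values were the higher (log2 −1.72 ± 0.51, edgeR adjusted p = 0.220), by −2.49 within replicate 1 and −1.01 within replicate 2. Pdk4, a kinase that restrains glucose oxidation, was at 23.1 and 4.59 CPM in SISC, against 2.69 and 9.07 in LISC. Its groups overlapped and its direction was opposite in the replicate numbers, at −3.08 within replicate 1 and 0.98 within replicate 2.

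Of the other genes of these pathways, 127 of 144 were tested, and edgeR called 4 with higher LISC values and 1 with higher SISC values, where it called 1.45% and 0.741% of all genes tested. Fatty acyl-CoA reductases, which make the fatty alcohols for ether lipids and waxes, were called in opposite directions. Far1 was at 7.93 and 3.47 CPM in SISC, against 73.1 and 92.1 in LISC, 14.7-fold higher in LISC (edgeR adjusted p = 0.0403; 5.90e-19 to 0.0467 over 11 alternatives, each of which called it), with a log2 difference of 3.87 in full, 4.57 without SISC replicate 1 and 3.35 without SISC replicate 2. Far2 was at 128 and 138 CPM in SISC, against 21.9 and 21.4 in LISC, 6.14-fold higher in SISC (edgeR adjusted p = 0.0248). Far2 kept its call under 8 of 11 alternatives, and among those that lost it were the fits without either LISC library. With each library left out, its log2 difference ran from −2.68 to −2.59. Per kilobase, Far1 was at 0.0509 and 0.0208 of the level of Far2 in SISC and at 3.08 and 3.82 times it in LISC. Idh1, the isocitrate dehydrogenase of cytosol and peroxisome, was at 35.7 and 44.7 CPM in SISC, against 403 and 538 in LISC, 11.7-fold higher in LISC (edgeR adjusted p = 0.0269; 0.0503 and 0.0553 without SISC replicate 1 or 2).

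Acacb, the acetyl-CoA carboxylase whose product malonyl-CoA inhibits Cpt1 enzymes, was at 5.38 and 4.53 CPM in SISC, against 44.7 and 24 in LISC, 6.92-fold higher in LISC. Its edgeR adjusted p of 0.0485 was at the threshold, and the call was lost under 6 of 11 alternatives, among them without SISC replicate 2 (0.109) and without LISC replicate 1 (0.0606, where the log2 difference was 2.28 in place of 2.79). Pparg, the nuclear receptor PPAR gamma, was at 3.20 and 5.62 CPM in SISC, against 58.2 and 83.3 in LISC (15.9-fold higher in LISC, edgeR adjusted p = 0.0267). Ppara, the PPAR alpha gene, was at 7.06 and 4.40 CPM in SISC, against 5.75 and 3.64 in LISC, with overlapping groups and a log2 difference of −0.29 ± 0.48. Per kilobase, Pparg was at 0.667 and 2.30 times the level of Ppara in SISC and at 19.2 and 26.5 times it in LISC.

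By list, 1 of 27 other mitochondrial oxidation genes tested was called (Acacb), 0 of 7 other ketone body genes, 0 of 23 peroxisome biogenesis genes, 3 of 34 other peroxisomal enzymes and carriers, 1 of 19 PPAR receptors and partners, and 0 of 18 other PPAR-responsive genes. Of all genes tested, 8.73% had an unadjusted edgeR p below 0.05 and were higher in LISC, and 4.67% were higher in SISC. Of the 7 ketone body genes, 5 had such a p, all higher in LISC, and the median log2 difference was 1.03. Of the 23 biogenesis genes, 1 had such an unadjusted p (Pex11g, higher in LISC), all lay within 2-fold, and the median was 0.01. Of the 18 PPAR-responsive genes, 4 had such an unadjusted p (Fabp1, Cidec, Creb3l3 and Gpd1, named after their values were seen), all higher in SISC, and the median was −0.001. Of the 34 peroxisomal enzymes and carriers there were 7 higher in LISC and 4 higher in SISC, with a median of 0.23. Of the 19 PPAR receptors and partners there were 1 and 3, with a median of −0.25, and of the 27 mitochondrial genes 1 and 0, with a median of 0.28. By adjusted p, DESeq2 called 10 of all these pathway genes higher in LISC and 8 higher in SISC, where it called 4.64% and 2.32% of all genes tested. Cat, the peroxisomal catalase, was at 117 and 117 CPM in SISC, against 67.8 and 82.9 in LISC (−0.63 ± 0.27, edgeR adjusted p = 0.437).

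**Figure D4:**
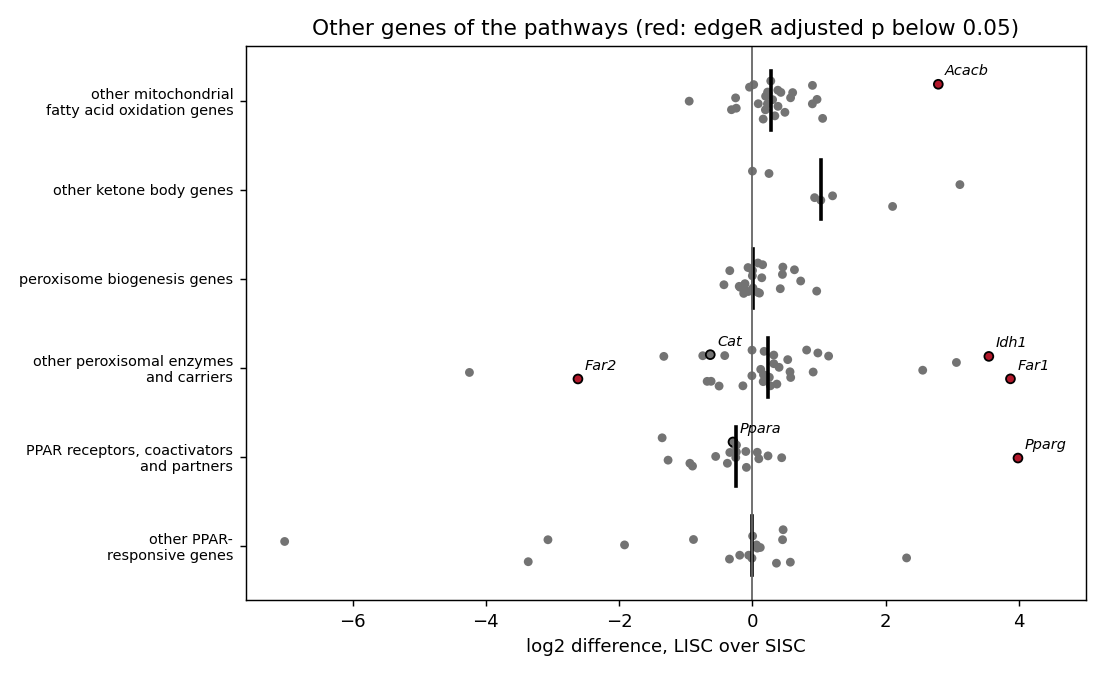
Log2 difference of LISC over SISC for the tested genes of 6 other pathway lists, 1 point per gene, with a vertical bar at each list's median. Red points passed edgeR's test (Acacb, Idh1, Far1 and Pparg higher in LISC, Far2 higher in SISC); other named points are Cat and Ppara, and vertical scatter within a list has no meaning.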

How the data were processed

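The authors deposited RSEM tables with expected counts and TPM per gene for 4 libraries; the submitters' processing notes name STAR 2.7.2b, RSEM 1.2.31 and the build GRCm38 (mm10). The kit marks strand, per the labels' protocols. Neither the annotation release nor the use of strand in counting is stated in the sources used here. In expected counts, reads that match several genes are divided by estimation, which can blur close copies. Of 55487 gene identifiers, 55227 matched a GENCODE vM21 symbol.

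Expected counts were rounded and tested with edgeR 4.0.16 under R 4.3.3 (quasi-likelihood, intestine as sole term, TMM scaling, the filterByExpr filter at a minimum count of 10, Benjamini-Hochberg adjustment over all genes tested). Standard errors are the log2 difference divided by the square root of F. Within-replicate differences added 0.5 to each count. A count of 3, the limit that 0 allows, corresponds to 0.0937 to 0.278 CPM. Alternatives were DESeq2 1.42.0, limma 3.58.1 (limma-trend on log2(TPM + 1) of the deposited TPM), other filters and scaling, a replicate block and each library left out. No replicate pair matched to within sampling error (chi-square over degrees of freedom 892 for SISC, 833 for LISC), so each library counts as 1 sample.

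The members and lists were chosen with earlier results of these data known. Every member is given. Members apart in both libraries of each group by at least 2-fold have every library's value, and of the other pathway genes the called ones are named (where the group with more had a mean TPM of 1 or above), with Ppara and Cat. Values of some other pathway genes are not reported here.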

Additional observations from a re-analysis of the deposited data

How the results depend on the processing

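Hao2, Far1 and Pparg kept their call under all 11 alternatives. The number of members called was 4 higher in LISC and 1 higher in SISC with DESeq2, 4 and 2 when low counts were kept, 2 and 0 with limma-trend on TPM, and 5 and 1 with a replicate block, which added Acaa1b, Acads, Acadl and Acsl3 in LISC and Slc27a2 in SISC (for Acadl, edgeR adjusted p = 0.0126 with the block). The labels give no shared source to libraries of the same replicate number, so the block is an alternative only. Across genes tested, which are not independent, the replicate differences of SISC and LISC had a Pearson r of 0.635. Over the members tested, r had the opposite sign, at −0.481. For other pathway genes the counts were 10 and 8 with DESeq2, 9 and 10 with low counts kept, 18 and 7 with the block, and 4 and 4 with limma-trend. Over all genes they were 769 and 384 with DESeq2, 942 and 465 with low counts kept, 1015 and 524 with the block, and 353 and 172 with limma-trend. The block and limma-trend tested the same 14165 genes as the main fit, and DESeq2 gave an adjusted p to 16557. With low counts kept, every gene with a count was tested, which is a larger set. With each library left out in turn, all-gene counts ran from 166 to 338 in LISC and from 79 to 149 in SISC, member counts from 1 to 2 in LISC with 0 in SISC, other pathway counts from 3 to 4 in LISC and from 0 to 1 in SISC, and the members' median log2 difference from 0.0603 to 0.40. No setting moved the median of all genes beyond −0.06 to 0.05. The cause of these shifts was not tested.

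Small differences changed sign. Acaa2 was at 0.00423 with the block and 0.00866 with a stricter filter. With each library left out, log2 differences ran from −0.19 to 0.56 for Acadm, −0.58 to 0.15 for Acadsb, −0.50 to 0.33 for Etfdh, −0.15 to 0.37 for Hadha, −0.11 to 0.29 for Hadhb, −0.21 to 0.34 for Hadh, −0.31 to 0.32 for Acaa2, −0.33 to 0.83 for Decr1, −0.48 to 0.32 for Eci2, −0.0327 to 0.35 for Bdh1, −2.34 to 0.37 for Pdk4 and −0.65 to 0.0750 for Ppara. Depth limits Cd36, which had too few counts to be tested, and Acaa1b, whose SISC values rest on counts of 1.06 and 16.9.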

Other observations

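Members also differed between libraries of the same intestine. In 23 of the 31 members tested (74.2%) the replicate 2 library was above the replicate 1 library in both SISC and LISC, against 39.7% of all genes tested. The members' median log2 difference of replicate 2 over replicate 1 was 0.32 in SISC and 0.41 in LISC, where all genes had 0.01 and 0.08. Decr1 was at 32.7 and 74.1 CPM in SISC replicates 1 and 2 and at 44.8 and 73.6 CPM in LISC replicates 1 and 2, so that it differed more by replicate number than by intestine. Etfdh, at 60.5 and 100 CPM in SISC, against 56.6 and 98.2 in LISC, did the same. The share of rRNA was higher in the replicate 1 libraries. So were the 6 proliferating crypt cell markers in sum (2220 and 1242 CPM in SISC replicates 1 and 2, 1990 and 1098 in LISC). Of these 6, 1 (Pcna) was higher in replicate 2 in both groups. In SISC the replicates also differed in sex-linked expression. The part of each in these differences was not tested. The other mitochondrial oxidation genes had 21 of 27 (77.8%) with this order and the PPAR receptors and partners 4 of 19 (21.1%).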
